A study of Rattus norvegicus with 12 samples.

Results

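The 10 genes described here encode 2-pore domain (K2P) potassium channels and were taken by symbol: Kcnk1, Kcnk2, Kcnk3, Kcnk4, Kcnk5, Kcnk6, Kcnk10, Kcnk12, Kcnk13 and Kcnk18. They are 10 of the 20152 genes listed in any of 12 RNA-seq libraries of rat dorsal root ganglion, which holds the cell bodies of the sensory neurons that serve body and limbs. All 10 were listed in each of the 12 libraries, and all 10 passed the filter on low counts. The 12 libraries form 3 groups of 4. The vehicle group is labelled only as vehicle. The paclitaxel group received the microtubule-stabilising drug (2.0 mg/kg) from a DMSO solution diluted with saline. The oxaliplatin group received the platinum drug (2.4 mg/kg) in glucose solution. Both drugs were given by intraperitoneal injection as rat models of peripheral neuropathic pain. With 1 vehicle group for 2 drugs in different solvents, drug and solvent cannot be told apart where the vehicle group lacked that solvent. For the rats' strain, sex and age, the number of injections and the time of tissue collection, the sources used here give nothing. The labels also do not say whether the 4 libraries of a group came from separate animals, and p-values then cover the spread among these libraries, which may be technical. The tissue was bulk ganglion, in which fewer cells of a type and less RNA per cell cannot be told apart.

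K2P channels are dimers in which each subunit carries a pair of pore loops, and they pass the leak or background potassium current that sets the resting membrane potential of a cell. They are grouped by relatedness and by what opens or closes them: the TWIK channels, which pass weak currents; the TREK and TRAAK channels, opened by stretch, warmth and arachidonic acid; the TASK channels, closed by extracellular acid; the TALK group, opened by alkaline solutions; the THIK channels, inhibited by halothane; and TRESK, which the calcium-dependent phosphatase calcineurin activates. In sensory neurons they oppose firing, and TREK, TRAAK and TRESK channels are known from work on nociceptors, the neurons that respond to painful stimuli.

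The libraries were of like depth, with totals of 17008728 to 17615736 estimated counts. The tissue label was checked against 16 neuronal markers, none of them at 0, which together held 13090 to 21872 CPM (counts scaled to library size). They were on the high side after paclitaxel (16867 to 21872 CPM, against 15143 to 17122 in vehicle and 13090 to 16905 in oxaliplatin). The macrophage list moved the other way, with 207 to 416 CPM after paclitaxel, 467 to 805 in vehicle and 502 to 628 in oxaliplatin. Paclitaxel 4 stood apart from the other 3 paclitaxel libraries and lay next to the vehicle libraries on the first principal component, at 7.07 where paclitaxel 1, 2 and 3 had 23.5 to 51.7 and vehicle libraries −10.4 to 5.40. Without it, 1631 genes in place of 19 passed the paclitaxel test. Nothing in the labels or files allows the treatment of this library to be checked, so it is used as labelled. Oxaliplatin 1 and 3 held the most erythroid RNA (14984 and 16271 CPM over 12 markers, against 1161 to 6895 in the other libraries) and the most B cell RNA (72.9 and 68.9 CPM, against 4.54 to 22.3). Values with and without a library are given below where it changes a call.

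Levels of the 10 channel genes spanned a wide range in vehicle ganglia, on the length-scaled FPKM scale that allows genes to be compared. Kcnk1 was the most abundant, at 22.3 ± 2.49 FPKM (SD, n = 4), and Kcnk13 the least, at 0.70 ± 0.13 FPKM. Kcnk4 came second, at 11.6 ± 0.309 FPKM, with no overlap with its neighbours in the order. Kcnk2 (8.93 ± 0.746 FPKM), Kcnk18 (8.65 ± 1.08 FPKM) and Kcnk12 (6.85 ± 1.18 FPKM) followed; the range of Kcnk18 overlapped both others, while those of Kcnk2 and Kcnk12 did not overlap. Kcnk3 came next, with no overlap on either side, at 4.49 ± 0.410 FPKM. Kcnk6 (2.67 ± 0.724 FPKM), Kcnk10 (2.20 ± 0.520 FPKM) and Kcnk5 (2.16 ± 0.358 FPKM) again overlapped one another. Of the other K2P genes in the files, Kcnk9, which encodes an acid-sensitive TASK channel like Kcnk3, had 1.21 ± 0.175 FPKM in vehicle, and Kcnk7 (0.18), Kcnk16 (0.10) and Kcnk15 (0.015 FPKM) were lower still.

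**Figure D1:**
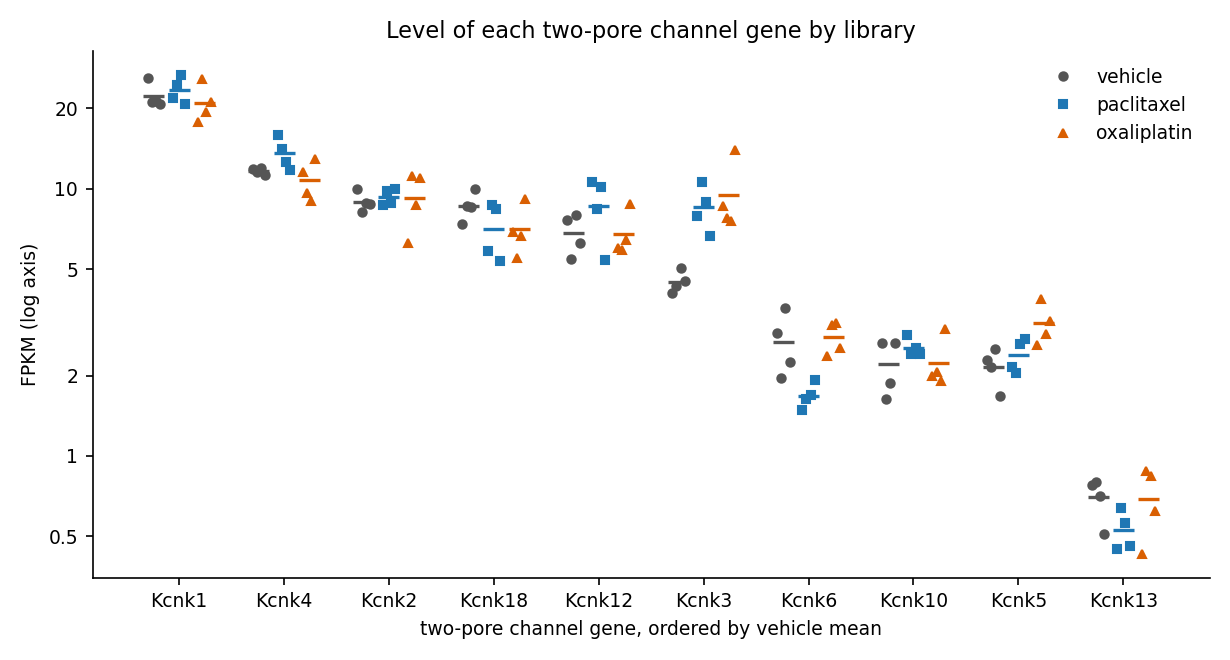
Level of each of the 10 K2P genes in each library, in FPKM on a log axis, with genes ordered by their vehicle mean; points are libraries (circles vehicle, squares paclitaxel, triangles oxaliplatin) and bars are group means (n = 4). Kcnk1 lies at the top with 22.3 FPKM in vehicle and Kcnk13 at the bottom with 0.70 FPKM, and the vehicle points of Kcnk3 lie below all its drug points.

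The place of Kcnk3 in this order differed between the groups, as did those of Kcnk2, Kcnk5, Kcnk6, Kcnk10, Kcnk12 and Kcnk18. Among the 10 only Kcnk1, Kcnk4 and Kcnk13 kept their place. By mean FPKM Kcnk3 was the sixth of the 10 in vehicle, the fifth after paclitaxel (8.52 ± 1.65 FPKM) and the third after oxaliplatin (9.52 ± 3.04 FPKM). In both drug groups its range overlapped that of its neighbours, which it did not in vehicle. It held 6.37% ± 0.676 of the summed FPKM of the 10 genes in vehicle, 10.9% ± 1.30 after paclitaxel and 12.8% ± 2.61 after oxaliplatin. Kcnk1 held the most in every group, with mean shares of 28.8% to 31.6%. The sum itself was 70.6 ± 4.21 FPKM in vehicle, 77.8 ± 7.29 after paclitaxel and 73.3 ± 9.97 after oxaliplatin, with overlapping spreads. In CPM, which is not divided by transcript length, it was 172 ± 9.26, 199 ± 18.8 and 177 ± 21.7.

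The files also give the number of transcript models behind each gene and an abundance-weighted transcript length. Kcnk3, Kcnk5 and Kcnk6 had 1 model each and a constant length. The weighted length of Kcnk13, which had 2 models, ran from 2815 to 4292 bases over the 12 libraries (a span of 52.5%), and those of Kcnk10, Kcnk4 and Kcnk2 spanned 16.01%, 15.9% and 13.7%. The FPKM of these 4 genes is thus divided by a length that varied between libraries. Groups are compared below on counts, which are not corrected for that length. A shift between transcript models may therefore enter the counts of these 4 genes. Estimated counts were not whole numbers for Kcnk4 in 12 of 12 libraries, for Kcnk6 in 8 and for Kcnk10 in 4, and were whole for the other 7 genes. How the quantification made fractional counts is not given in the sources used here, so the values of these 3 genes are less certain.

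Each drug was compared with vehicle, and the drugs with each other, by edgeR's quasi-likelihood test over all 15809 genes tested, and a gene was called at a Benjamini-Hochberg adjusted p under 0.05. Few K2P genes were called: Kcnk3 rose after oxaliplatin, and Kcnk6 was higher after oxaliplatin than after paclitaxel. Against vehicle, 0 of the 10 genes were called after paclitaxel, where 0.12% of all genes were called. Kcnk3 was 1.96-fold higher in that comparison and did not pass (edgeR adjusted p = 0.0975). Unadjusted p was under 0.05 for 3 of the 10 (Kcnk3, Kcnk4 and Kcnk6), and for 2697 of 15809 genes. DESeq2 called 1 of the 10 after paclitaxel (Kcnk3), limma voom 2 (Kcnk3 and Kcnk6) and limma-trend on FPKM 0. Over all 15809 genes, DESeq2 called 247 in that comparison and limma voom 2141. Limma-trend called 23 and 20 with pseudocounts 1 and 0.1. Oxaliplatin against vehicle gave 1 call in 10, where 1.76% of all genes were called, and oxaliplatin against paclitaxel 1 in 10, where 11.3% were called. The share of K2P genes called between the drugs was thus close to that of all genes.

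Medians of the 10 genes were small beside the single changes. The median log2 fold change was 0.16 after paclitaxel (7 higher, 3 lower), −0.05 after oxaliplatin (4 higher, 6 lower) and −0.09 between the drugs (4 higher in oxaliplatin, 6 lower). The medians of all genes tested were −0.012, 0.0094 and 0.0042 in the same order. Library ranges did not overlap for Kcnk3 and Kcnk6 between paclitaxel and vehicle, for Kcnk3 and Kcnk5 between oxaliplatin and vehicle, and for Kcnk6 between the drugs. Among all genes tested, ranges did not overlap for 6.96%, 11.3% and 15.3% in these comparisons. Both drug comparisons share the vehicle libraries, so their values are set side by side and no overlap between them is read as a result.

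**Figure D2:**
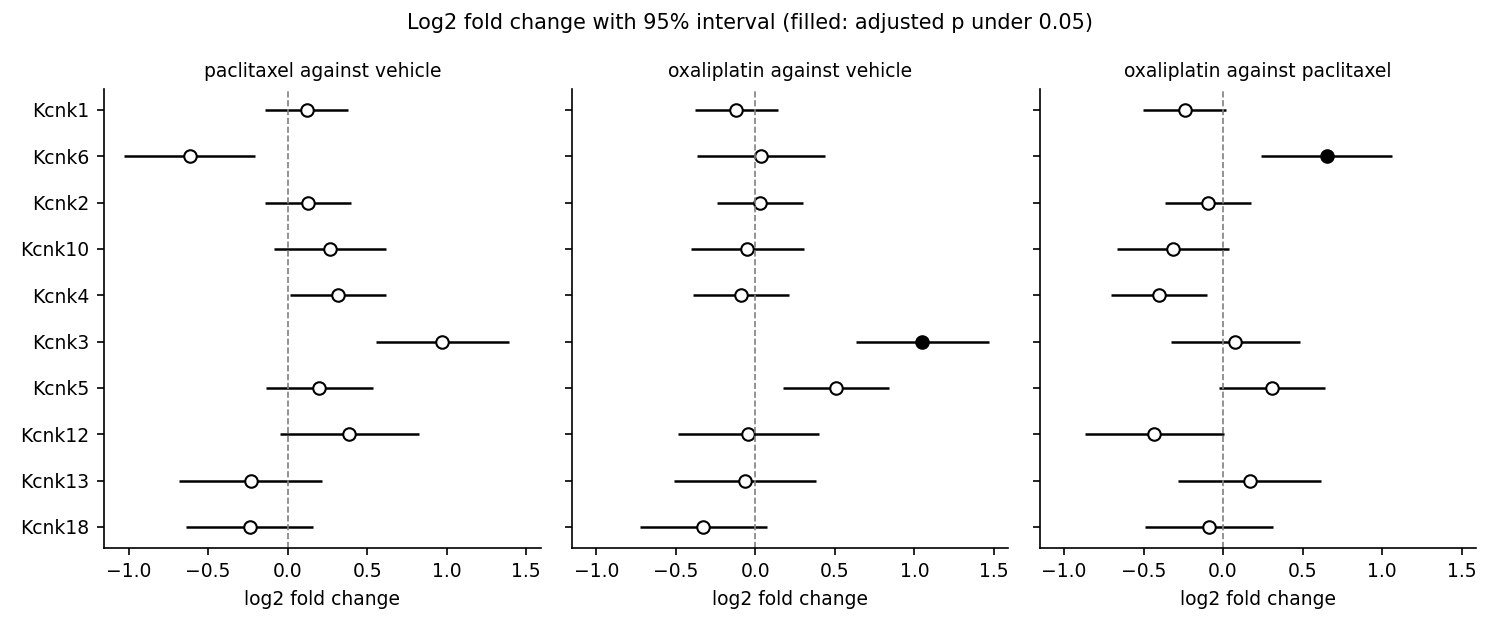
Log2 fold change of each K2P gene (points) with its 95% interval (lines) in the 3 comparisons, from edgeR; the axis is in log2 units, the dashed line marks no change, and filled points have an adjusted p under 0.05. Filled points are Kcnk3 for oxaliplatin against vehicle (1.05) and Kcnk6 for oxaliplatin against paclitaxel (0.65).

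Kcnk3 (gene ID 29553) encodes TASK-1, an acid-sensitive background channel. The vehicle libraries had 8.38, 9.06, 10.4 and 9.36 CPM (replicates 1 to 4). After paclitaxel the values were 17.5, 22.5, 19.2 and 13.9 CPM, and after oxaliplatin 17.9, 15.9, 15.1 and 28.2 CPM. All 8 drug libraries lay above the highest vehicle library. Paclitaxel 4 was the lowest of the drug libraries and oxaliplatin 4 the highest.

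Group means of Kcnk3 were 9.30 ± 0.846 CPM in vehicle, 18.3 ± 3.58 after paclitaxel and 19.3 ± 6.07 after oxaliplatin. Kcnk3 rose 2.07-fold after oxaliplatin (log2 fold change 1.05 ± 0.19 SE, 95% interval 0.63 to 1.47, edgeR adjusted p = 0.0205). After paclitaxel it was 1.96-fold higher (0.97 ± 0.19, interval 0.56 to 1.39) and did not pass (adjusted p = 0.0975), although by unadjusted p it was the gene at rank 30 of 15809. The drugs themselves differed by 0.08 ± 0.19 (interval −0.33 to 0.48, adjusted p = 0.822). That interval holds differences between the drugs in either direction, but none as large as the change of either drug from vehicle.

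The call after oxaliplatin ended without vehicle 1 (adjusted p = 0.0608), vehicle 2 (0.0602) or vehicle 4 (0.0752), with log2 fold changes of 1.00 to 1.05. Without oxaliplatin 4, the highest library, the change was 0.80 and still passed (adjusted p = 0.0298). For paclitaxel, Kcnk3 passed without paclitaxel 4 (1.08, adjusted p = 0.0198), without oxaliplatin 4 (0.97, 0.0120) and when only the vehicle and paclitaxel libraries were fitted (0.97, 0.0278). DESeq2 gave 0.98 (adjusted p = 0.000973) and limma voom 1.12 (0.00859) after paclitaxel.

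Neuronal markers moved with the paclitaxel group: 16 of 16 were higher than in vehicle, with 0 called by edgeR (9 at unadjusted p under 0.05; 2 called by DESeq2 and 9 by limma voom). Over all 15809 genes in that comparison edgeR called 0.12%, 2697 had unadjusted p under 0.05, DESeq2 called 247 and limma voom 2141. After oxaliplatin 14 of the 16 neuronal markers were lower than in vehicle, with 1 called (Nsg1, an endosomal protein of neurons). Of all genes, 1.76% were called after oxaliplatin. Set against summed neuronal markers, Kcnk3 stood per 1000 CPM of them at 0.546 to 0.619 CPM in vehicle libraries, 0.799 to 1.16 after paclitaxel and 1.16 to 1.67 after oxaliplatin. On that scale all 8 drug libraries lay above all 4 vehicle libraries. Markers of large myelinated sensory neurons were lower after oxaliplatin in 9 of 11 cases, with 3 called, and their summed level was 7007 to 9791 CPM, against 12094 to 14410 in vehicle and 10586 to 16832 after paclitaxel. The oxaliplatin and vehicle libraries did not overlap in that sum, and its part in the Kcnk3 result was not tested.

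White adipocyte markers also moved with the oxaliplatin group. Of 10 tested, 10 were higher than in vehicle and 4 were called, where 1.76% of all genes were called. The summed level of the adipocyte markers was 29.9 to 44.2 CPM in vehicle, 14.1 to 32.8 after paclitaxel and 45.6 to 118 after oxaliplatin. Lep, which encodes leptin, was the 1 marker of this list at 0 in some libraries. Relative to 1000 CPM of these markers, Kcnk3 had 233 to 313 CPM in vehicle, 648 to 1240 after paclitaxel and 152 to 619 after oxaliplatin, so on this scale oxaliplatin overlapped vehicle and paclitaxel did not. Pericyte and smooth muscle markers were higher after oxaliplatin in 11 of 11 cases, with 0 called by edgeR (6 at unadjusted p under 0.05; 0 called by DESeq2 and 0 by limma voom). Relative to 1000 CPM of them Kcnk3 had 29.5 to 54.3 CPM in vehicle, 65.7 to 124 after paclitaxel and 49.3 to 109 after oxaliplatin, again with overlap of oxaliplatin and vehicle. Fibroblast markers were higher after oxaliplatin in 8 of 9 cases, with 0 called by edgeR and 4 at unadjusted p under 0.05. Per 1000 CPM of fibroblast markers Kcnk3 had 2.55 to 3.55 CPM in vehicle, 5.23 to 9.80 after paclitaxel and 3.71 to 7.52 after oxaliplatin. On the fibroblast scale both drug groups lay above vehicle without overlap. Erythroid markers were higher after oxaliplatin in 12 of 12 cases, with 0 called by edgeR and 10 at unadjusted p under 0.05. DESeq2 called 9 of them and limma voom 5. B cell markers were higher in 7 of 7 cases, with 0 called by edgeR and 6 at unadjusted p under 0.05. DESeq2 called 4 of the B cell markers and limma voom 0. The B cell sum was high in oxaliplatin 1 and 3 (72.9 and 68.9 CPM). In oxaliplatin 2 and 4 it was 13.2 and 22.3 CPM, against 12.7 to 16.4 in vehicle. Over all 15809 genes 2726 had unadjusted p under 0.05 after oxaliplatin (edgeR), DESeq2 called 881 and limma voom 590. The part of all these marker lists in the Kcnk3 result was not tested.

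Genes whose log2 CPM followed Kcnk3 most closely over the 12 libraries were Pappa, a protease that cleaves insulin-like growth factor binding proteins (Pearson r = 0.909), Fbxo10 (0.904), Parp8 (0.901), Dffb, a DNase of apoptosis (0.901), and Cldn16, a tight junction protein (0.897). They were taken as the 5 highest of 12842 genes, and the 12 libraries share their group differences, so these values describe likeness only. With the group means taken out, r was 0.776 for Pappa, 0.752 for Fbxo10, 0.955 for Parp8, 0.666 for Dffb and 0.660 for Cldn16. Parp8 was thus the gene of the 5 that followed Kcnk3 most closely within groups.

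**Figure D3:**
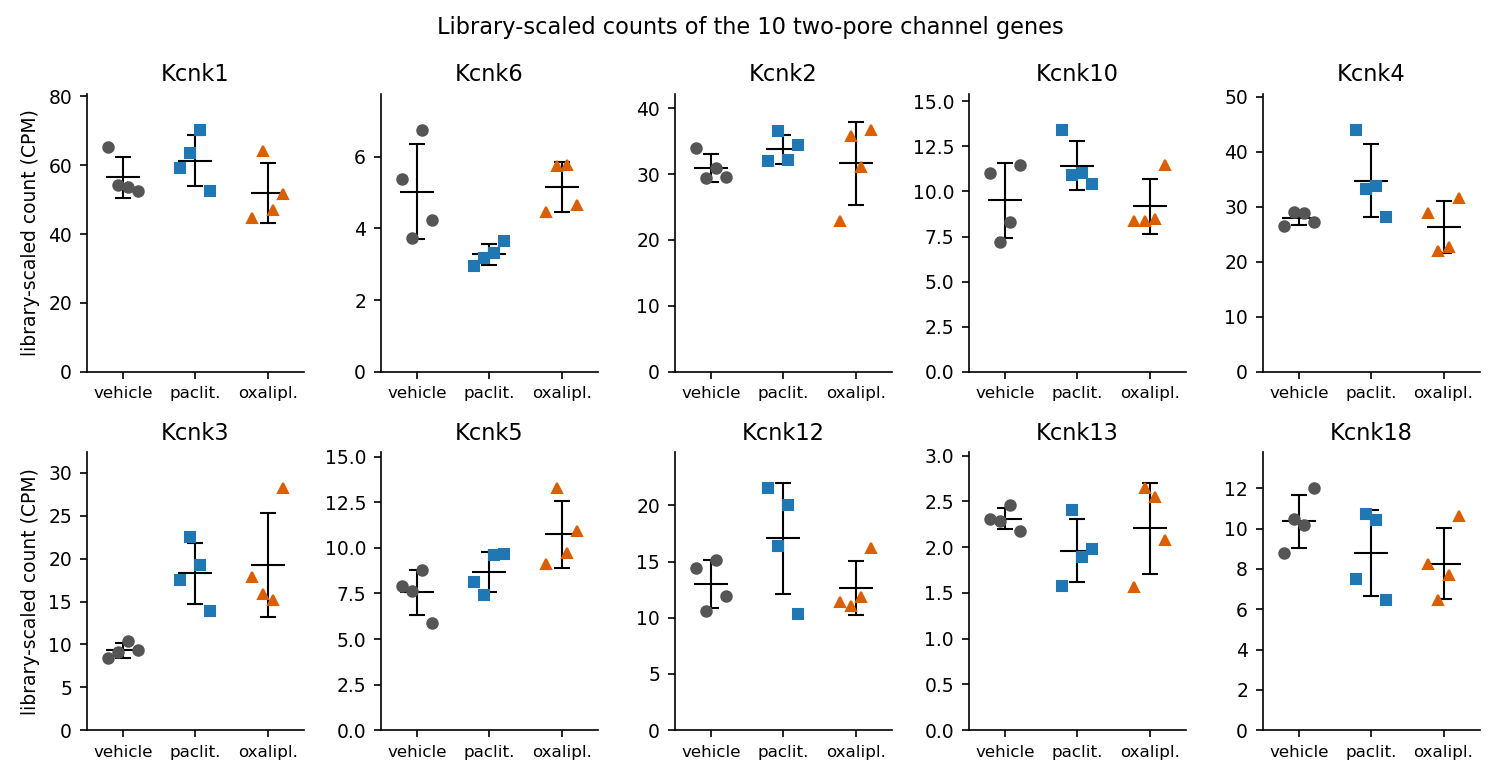
Library-scaled counts (CPM, linear axes from 0) of the 10 K2P genes in vehicle, paclitaxel and oxaliplatin libraries; points are libraries, horizontal bars are means and whiskers are SD (n = 4). Kcnk3 lies between 8.38 and 10.4 CPM in vehicle and between 13.9 and 28.2 CPM in the 8 drug libraries, and Kcnk6 is lowest after paclitaxel (2.96 to 3.66 CPM).

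Kcnk5 (364241) encodes TASK-2, a channel of the alkaline-activated TALK group despite its name. The vehicle values were 7.92, 7.66, 8.81 and 5.85 CPM, the paclitaxel values 8.10, 7.39, 9.59 and 9.64 CPM, and the oxaliplatin values 9.12, 13.3, 9.71 and 10.9 CPM. All oxaliplatin libraries lay above all vehicle libraries, while paclitaxel libraries lay between and overlapped both. The change after oxaliplatin was 0.51 ± 0.16 (interval 0.17 to 0.84) and did not pass (edgeR adjusted p = 0.117). It was 0.20 ± 0.16 after paclitaxel (adjusted p = 0.492) and 0.31 ± 0.16 between the drugs (adjusted p = 0.205). No setting tried called Kcnk5: its adjusted p for oxaliplatin against vehicle ran from 0.0555 to 0.311.

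Kcnk6 (116491) encodes TWIK-2, a weakly conducting channel also known from macrophages and vessels. Vehicle libraries had 5.37, 3.74, 6.75 and 4.25 CPM, paclitaxel libraries 2.96, 3.17, 3.31 and 3.66 CPM, and oxaliplatin libraries 4.45, 5.74, 5.76 and 4.66 CPM. All paclitaxel libraries lay below every other library, and the vehicle libraries spread the most (mean 5.03 ± 1.34 CPM, against 3.28 ± 0.293 and 5.15 ± 0.697). Kcnk6 was 1.57-fold higher after oxaliplatin than after paclitaxel (0.65 ± 0.19, interval 0.24 to 1.06, edgeR adjusted p = 0.0432). Against vehicle it had −0.62 ± 0.19 after paclitaxel (adjusted p = 0.209) and 0.04 ± 0.19 after oxaliplatin (adjusted p = 0.949).

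The difference between the drugs lay close to the threshold and rests on 49 to 102 estimated counts per library. Its call ended without paclitaxel 1, 2 or 3 (adjusted p = 0.103, 0.102 and 0.0973), oxaliplatin 2 or 3 (0.107 and 0.122) or vehicle 1 (0.0579), and with no filter on low counts (0.0537). Its log2 fold change stayed between 0.50 and 0.73 over all settings.

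Markers of non-neuronal cells moved with Kcnk6 between paclitaxel and vehicle and between the drugs, but not in the same way between oxaliplatin and vehicle. After paclitaxel 14 of 14 macrophage markers were lower than in vehicle, with 2 called (Adgre1 and Spi1), and 9 of 10 endothelial markers were lower, with 0 called (2 at unadjusted p under 0.05; 0 called by DESeq2 and 1 by limma voom). Between the drugs 14 of 14 macrophage markers, 10 of 10 endothelial markers and 9 of 9 fibroblast markers were higher after oxaliplatin, with 6, 5 and 5 called. Over all 15809 genes edgeR called 11.3% between the drugs and 0.12% between paclitaxel and vehicle. In the latter comparison 2697 genes had unadjusted p under 0.05, DESeq2 called 247 and limma voom 2141. Between oxaliplatin and vehicle Kcnk6 had 0.04 ± 0.19. There 9 of 10 endothelial and 8 of 9 fibroblast markers were higher, and 10 of 14 macrophage markers were lower. In each of these lists 0 were called by edgeR, with 6, 4 and 4 at unadjusted p under 0.05. Over all 15809 genes 1.76% were called there and 2726 had unadjusted p under 0.05. No macrophage or endothelial marker was at 0 in any library. Summed endothelial markers were 200.1 to 316 CPM in vehicle, 206 to 237 after paclitaxel and 296 to 345 after oxaliplatin.

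Per 1000 CPM of summed macrophage markers, Kcnk6 had 5.14 to 9.82 CPM in vehicle, 7.62 to 14.3 after paclitaxel and 8.17 to 10.6 after oxaliplatin, so the groups overlapped on that scale. Against 1000 CPM of endothelial markers it had 18.7 to 21.4 CPM in vehicle, 13.9 to 16.1 after paclitaxel and 13.3 to 17.8 after oxaliplatin. On the endothelial scale the drug groups overlapped each other and both lay below vehicle. Kcnk6 was not scaled to fibroblast markers. Over the 12 libraries it had Pearson r of 0.871 with the mean log2 CPM of fibroblast markers. For macrophage and endothelial markers r was 0.816 and 0.812. With the group means taken out, r was 0.713 for fibroblast, 0.512 for macrophage and 0.866 for endothelial markers. Whether changes in any of these cells carry the Kcnk6 difference was not tested.

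**Figure D4:**
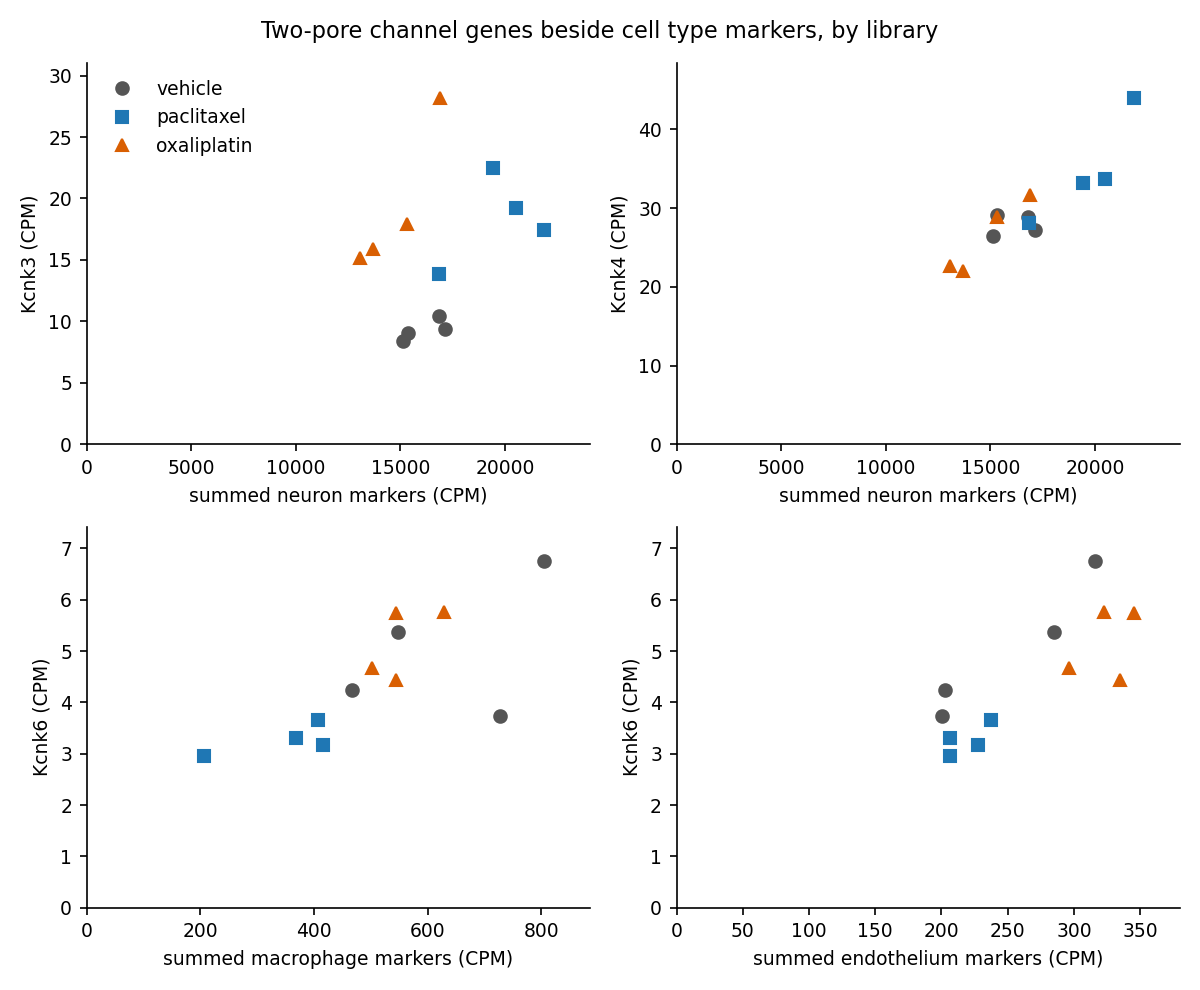
Kcnk3 and Kcnk4 against summed neuronal markers (upper panels) and Kcnk6 against summed macrophage and endothelial markers (lower panels), all in CPM; each point is 1 library (circles vehicle, squares paclitaxel, triangles oxaliplatin). The 4 vehicle libraries lie below the drug libraries for Kcnk3 at overlapping marker sums, and the paclitaxel libraries are lowest for both Kcnk6 and the macrophage sum (207 to 416 CPM).

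Kcnk1 (59324), the most abundant of the 10, encodes TWIK-1. Its level was 56.5 ± 5.96 CPM in vehicle, 61.3 ± 7.49 after paclitaxel and 51.9 ± 8.65 after oxaliplatin, and the ranges of all groups overlapped. The differences were 0.12 ± 0.12 after paclitaxel (interval −0.14 to 0.38) and −0.12 ± 0.12 after oxaliplatin (−0.38 to 0.14), with adjusted p-values of 0.592 and 0.662 (edgeR). Between the drugs it had −0.24 ± 0.12 (adjusted p = 0.206), with 3 of 4 oxaliplatin libraries below every paclitaxel library.

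The stretch- and heat-sensitive channels came in 3 genes. Kcnk2 (170899), which encodes TREK-1, lay between 29.3 and 34.0 CPM in vehicle, 31.9 and 36.6 after paclitaxel and 22.9 and 36.7 after oxaliplatin. Its changes of 0.13 ± 0.13 and 0.03 ± 0.13 against vehicle were within the spread of the libraries (edgeR adjusted p = 0.588 and 0.932), and the intervals reached at most 0.40. Oxaliplatin 1 was the low library of its group for Kcnk2, at 22.9 CPM, where the other 3 had 31.1 to 36.7 CPM.

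Kcnk10 (65272), which encodes TREK-2, had 7.19 to 11.5 CPM in vehicle, 10.4 to 13.4 after paclitaxel and 8.37 to 11.5 after oxaliplatin. Its changes were 0.27 ± 0.16 after paclitaxel and −0.05 ± 0.16 after oxaliplatin (edgeR adjusted p = 0.388 and 0.913). Between the drugs it had −0.32 ± 0.16 (adjusted p = 0.215). Of the oxaliplatin libraries only number 4 (11.5 CPM) reached the paclitaxel range.

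Kcnk4 (116489) encodes TRAAK, the arachidonic acid-stimulated channel, and was the second most abundant of the 10. Vehicle libraries lay close together, at 26.5, 29.1, 28.8 and 27.3 CPM. Paclitaxel libraries had 44.0, 33.2, 33.7 and 28.1 CPM and oxaliplatin libraries 28.8, 22.0, 22.6 and 31.6 CPM. Paclitaxel 1, 2 and 3 lay above all vehicle libraries and paclitaxel 4 among them.

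The difference of Kcnk4 between the drugs, −0.40 ± 0.14 (interval −0.70 to −0.10), did not pass (edgeR adjusted p = 0.0763). It passed without paclitaxel 4 (−0.49, adjusted p = 0.0227), without oxaliplatin 4 (−0.51, 0.0325), by DESeq2 (0.0361) and by limma voom (0.00803). Against vehicle Kcnk4 had 0.32 ± 0.14 after paclitaxel (adjusted p = 0.275) and −0.09 ± 0.14 after oxaliplatin (adjusted p = 0.802). Per 1000 CPM of summed neuronal markers it had 1.59 to 1.90 CPM in vehicle, 1.65 to 2.01 after paclitaxel and 1.61 to 1.88 after oxaliplatin. The 3 groups overlapped almost wholly on that scale.

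Kcnk12 (64119) encodes THIK-2, a channel mostly silent when expressed alone. Vehicle libraries had 14.4, 10.6, 15.2 and 11.9 CPM, paclitaxel libraries 21.5, 16.4, 20.01 and 10.3 CPM, and oxaliplatin libraries 11.4, 11.03, 11.9 and 16.2 CPM. Paclitaxel 1, 2 and 3 exceeded every vehicle library, and paclitaxel 4 fell below them all. The change after paclitaxel was 0.39 ± 0.20 (interval −0.05 to 0.83, edgeR adjusted p = 0.330) and became 0.57 without paclitaxel 4 (adjusted p = 0.0450). Between the drugs the difference was −0.43 ± 0.20 (adjusted p = 0.176), and −0.61 without paclitaxel 4 (adjusted p = 0.0202). Limma voom called the latter with all libraries (adjusted p = 0.0330). After oxaliplatin the change was −0.04 ± 0.21. Scaled to 1000 CPM of neuronal markers, Kcnk12 had 0.690 to 0.954 CPM in vehicle, 0.613 to 0.984 after paclitaxel and 0.747 to 0.960 after oxaliplatin, with overlap of all groups.

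Kcnk13 (64120) encodes THIK-1, known as a leak channel of microglia and macrophages. It was the lowest of the 10 genes, with 26 to 46 estimated counts per library. Its level was 2.31 ± 0.116 CPM in vehicle, 1.96 ± 0.343 after paclitaxel and 2.21 ± 0.496 after oxaliplatin. The intervals of its changes, −0.68 to 0.21 after paclitaxel and −0.51 to 0.38 after oxaliplatin, were wide at this depth (edgeR adjusted p = 0.539 and 0.910). The median log2 fold change of the 14 macrophage markers after paclitaxel was −0.88, beside −0.23 ± 0.21 for Kcnk13. Per 1000 CPM of macrophage markers Kcnk13 had 3.06 to 4.67 CPM in vehicle, 4.85 to 7.61 after paclitaxel and 2.86 to 4.85 after oxaliplatin, so on that scale paclitaxel libraries lay above vehicle. The macrophage sum was itself lower after paclitaxel (207 to 416 CPM, against 467 to 805 in vehicle). In CPM the Kcnk13 ranges of paclitaxel and vehicle overlapped.

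Kcnk18 (445371) encodes TRESK, the leak channel of sensory neurons that calcineurin activates. Vehicle libraries had 8.78, 10.5, 10.2 and 11.996 CPM, paclitaxel libraries 7.50, 10.7, 10.4 and 6.45 CPM, and oxaliplatin libraries 8.26, 6.43, 7.68 and 10.6 CPM. The drug groups reached lower than vehicle and overlapped it. The changes were −0.24 ± 0.19 after paclitaxel (interval −0.64 to 0.16) and −0.33 ± 0.19 after oxaliplatin (−0.73 to 0.07), with adjusted p-values of 0.487 and 0.393 (edgeR). Scaled to 1000 CPM of neuronal markers, Kcnk18 had 0.580 to 0.701 CPM in vehicle, 0.343 to 0.552 after paclitaxel and 0.470 to 0.628 after oxaliplatin. On that scale, which was not tested, all paclitaxel libraries lay below all vehicle libraries. The neuronal sum was itself on the high side after paclitaxel (16867 to 21872 CPM, against 15143 to 17122 in vehicle).

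Genes that work with these channels were counted from lists of related genes. Of 21 partners and regulators of K2P channels, which include the 14-3-3 proteins that bind TASK and TRESK channels and the calcineurin subunits, 0 were called in either comparison with vehicle by edgeR (2 and 4 at unadjusted p under 0.05 after paclitaxel and oxaliplatin; DESeq2 called 1 and 3, limma voom 5 and 2). For this list and the lists below, the base over all 15809 genes was 2697 and 2726 at unadjusted p under 0.05 (edgeR). Of all genes, edgeR called 0.12% and 1.76% in these comparisons, DESeq2 called 247 and 881 genes, and limma voom 2141 and 590. In this list the smallest p was that of Senp1, a SUMO protease, after paclitaxel (−0.35 ± 0.12, adjusted p = 0.229) and of Ywhag, a 14-3-3 gene, after oxaliplatin (−0.45 ± 0.12, 0.0687). Between the drugs 4 were called lower after oxaliplatin and 1 higher, where 11.3% of all genes were called. Ywhag fell by 0.68 ± 0.12 on the log2 scale (adjusted p = 0.00589, edgeR), Ywhah by 0.41 ± 0.07 and Ywhaz by 0.30 ± 0.07, all of them 14-3-3 genes. Ppp3r1, the regulatory subunit of calcineurin, was lower by −0.34 ± 0.08, and Senp1 was higher by 0.51 ± 0.12; the last, with the largest p of the 5, was named after its value was seen. The median of the 21 was −0.12. Neuronal markers moved the same way between the drugs, 16 of 16 lower after oxaliplatin with 7 called and a median of −0.38, and their part was not tested.

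A list of 17 genes held inward rectifiers, a further family of potassium channels that hold the resting potential, and the sulfonylurea receptors Abcc8 and Abcc9. Of these, 0 were called against vehicle by edgeR, with 4 and 7 at unadjusted p under 0.05. DESeq2 called 0 and 0, limma voom 3 and 0. The smallest p was that of Abcc8 after paclitaxel (0.40 ± 0.14, adjusted p = 0.221) and of Kcnj9, a G protein-gated subunit, after oxaliplatin (0.47 ± 0.15, 0.128). Between the drugs, where 11.3% of all genes were called, Kcnj9 was higher after oxaliplatin by 0.54 ± 0.15 (edgeR adjusted p = 0.0379). Kcnj12 was lower, at −0.43 ± 0.11 (0.0283). The sodium leak channel complex, which passes the opposing inward leak, had 5 genes tested. None was called against vehicle (1 and 0 at unadjusted p under 0.05; DESeq2 called 0 and 0, limma voom 1 and 0). The smallest p was that of Unc79 after paclitaxel (0.28 ± 0.12, adjusted p = 0.270) and of the pore subunit Nalcn after oxaliplatin (−0.19 ± 0.09, 0.305). Fam155a, an auxiliary subunit, was lower after oxaliplatin than after paclitaxel (−0.42 ± 0.11, edgeR adjusted p = 0.0334). It was the 1 gene of the 5 called between the drugs.

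The sodium-potassium pump, which builds the gradient that leak channels discharge, had 13 genes tested, with 0 called against vehicle (1 and 5 at unadjusted p under 0.05; DESeq2 called 1 and 0, limma voom 1 and 0). After oxaliplatin the smallest p was that of the regulator Fxyd5 (0.51 ± 0.18, adjusted p = 0.163). Between the drugs 3 of the 13 were called lower after oxaliplatin, where 11.3% of all genes were called, among them the regulator Fxyd7 (−0.62 ± 0.14, adjusted p = 0.0172, edgeR) and the beta subunit Atp1b1 (−0.52 ± 0.13, 0.0274). Of the 4 other K2P genes listed, Kcnk7 and Kcnk9 had enough counts to test, and neither was called in any comparison by edgeR, DESeq2 or limma voom (0 at unadjusted p under 0.05 by edgeR). The changes of Kcnk9 were −0.06 ± 0.24 after paclitaxel and −0.21 ± 0.24 after oxaliplatin, beside the values near 1 for Kcnk3, whose product can pair with that of Kcnk9 in a mixed channel.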

How the data were processed

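Per the labels' protocols, RNA came from frozen ganglia by Trizol extraction, and a BGIseq500 kit was used for the libraries. CASAVA 1.4 and Bowtie2 appear in the submitters' processing notes. For the quantification program, genome build and strand setting nothing is stated (not given in the sources used here). Deposited files hold 1 estimated count and 1 FPKM value per gene (fragments scaled by transcript length and library size), with a transcript length, per the file headers. Genes are matched by the files' gene IDs, of which 18549 of 20152 (92%) are in the RefSeq table of GRCr8, used for names only.

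Each estimated count was rounded to a whole number, and the table was fitted in edgeR 4.0.16 (R 4.3.3) with filterByExpr, TMM scaling (factors 0.939 to 1.04) and a robust quasi-likelihood fit of 3 group means over 12 libraries (9 residual degrees of freedom). Of the genes listed, 15809 were tested and 4343 set aside. Benjamini-Hochberg adjustment ran over all genes tested, with a threshold of 0.05, and fold changes are log2. CPM values are scaled by the same factors; FPKM is used for levels between genes, their order and their shares, and no test between groups rests on it except limma-trend. Alternatives were DESeq2 1.42.0, limma 3.58.1 (voom with quality weights, and trend on log2(FPKM + 1) and log2(FPKM + 0.1)), RLE and upper quartile scaling, other filters, a fit without robust, fits of 2 groups, a replicate block and each library left out.

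Named are all 10 K2P genes and, from each list of related genes, up to 4 called genes per comparison, or the 1 with the smallest p; 1 gene that this rule would name, in more than 1 comparison, is not reported here. The genes and lists were chosen with earlier results of these data known. No 2 libraries of a group agreed within sampling noise (chi-square per gene 8.07 to 44.9).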

Additional observations from a re-analysis of the deposited data

Results flagged for a closer look

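In 3 of the 30 groups of 4 libraries, the highest library lay far from the other 3 by Dixon's test for the gap over the range, which chance gives in about 1 group in 20. Kcnk1 had a gap of 0.8691 of the range in vehicle, where vehicle 1 had 65.36 CPM. Kcnk10 had 0.9677 in oxaliplatin, where oxaliplatin 4 had 11.46 CPM. Kcnk12 had 0.8401 in oxaliplatin, where oxaliplatin 4 had 16.24 CPM.

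For Kcnk6 the effects of the drugs against vehicle differed, by 0.6521 on the log2 scale (oxaliplatin minus paclitaxel). The vehicle libraries cancel in this difference, so its test is the comparison of the drugs (edgeR adjusted p = 0.0432).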

How the results depend on the processing

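Under an alternative there were 691 values, those of single K2P genes and 1 for their order by level in vehicle. Of these, 642 kept their direction and side of the threshold, or their order. Another 13 gained a call, 12 lost one and 24 changed sign, all of the last far from the threshold. The number of K2P genes called after paclitaxel was 1 with only the 2 groups compared, 1 by DESeq2, 2 by limma voom, and 0 to 2 with 1 library left out. After oxaliplatin it was 0 with the replicate block and 0 to 1 with 1 library left out. Between the drugs it was 0 with no filter, 0 with the replicate block, 2 by DESeq2, 3 by limma voom and 0 to 3 with 1 library left out. With the replicate block Kcnk3 after oxaliplatin had 1.04 (adjusted p = 0.0633, edgeR) and Kcnk6 between the drugs 0.65 (0.0695). Among the related genes the block left, between the drugs, 3 of the 5 called partners and regulators (none higher), 0 of the 2 inward rectifiers, 0 in the sodium leak complex and 1 of the 3 pump genes, by count. The replicate numbers did not pair the libraries: same-numbered libraries deviated together with r of −0.23 to 0.16, and not every library correlated best with its own number.

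With 1 library left out, sign changes came in these ranges after oxaliplatin: Kcnk2 −0.058 to 0.158, Kcnk6 −0.083 to 0.206, Kcnk10 −0.186 to 0.053, Kcnk12 −0.197 to 0.031 and Kcnk13 −0.163 to 0.068. Between the drugs they were Kcnk2 −0.178 to 0.033, Kcnk3 −0.169 to 0.192 and Kcnk18 −0.239 to 0.022. Other sign changes were Kcnk10 after oxaliplatin by limma-trend (0.018 and 0.028 with pseudocounts 1 and 0.1), Kcnk13 after oxaliplatin by limma voom (0.024), and between the drugs Kcnk3 by limma voom (−0.207) and Kcnk18 by limma-trend with 0.1 (0.00038). The cause was not tested.

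Counts over all genes moved more. After paclitaxel 247 were called by DESeq2, 2141 by limma voom and 1631 without paclitaxel 4, against 19. After oxaliplatin there were 72 with the replicate block, 161 with 2 groups, 881 by DESeq2, 590 by limma voom and 49 to 357 with 1 library left out, against 278. Between the drugs there were 986, 1016, 2795, 4780 and 571 to 3463 in the same order, against 1788. Depth was lowest for Kcnk13 (26 to 46 estimated counts) and Kcnk6 (49 to 118).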
